A study of Canis lupus familiaris with 10 samples.

Results

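In dogs as in people, DLBCL (diffuse large B-cell lymphoma) is a common and aggressive cancer of B lymphocytes, which fill and enlarge the lymph nodes. The 6 small RNA libraries from lymph nodes of dogs with DLBCL (DLBCL1 to DLBCL6), of 10 libraries in all, are described here by how their miRNAs differed from one affected node to the next. They were chosen by their titles, and the other 4 libraries (Healthy2 to Healthy5) serve only as the background for spread. Each library came from 1 dog and was made from total RNA of a fresh frozen lymph node. The affected dogs were hospital patients of several breeds, and their peripheral nodes were taken by surgical biopsy under general anesthesia. The 4 Healthy nodes, judged non-neoplastic, came after euthanasia from young purpose-bred research dogs, all of the 1 listed breed Hound X. They were all female, whereas the affected dogs were of both sexes and their ages are not given in the sources used here. Origin, listed breed and sampling followed the diagnosis, and sex did in part. Base quality also did in part, since DLBCL4, DLBCL6 and all Healthy libraries had the lower share of high-quality bases in the study's statistics. The shares of these in any difference between the groups cannot be told apart. The history of 1 affected dog names antibiotics, and other treatment before biopsy is not given in the sources used here.

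A miRNA is a short RNA that guides silencing proteins to messenger RNAs, which it recognises mainly by the seed near its 5′ end. miRNAs with the same seed form a family with shared targets, and many miRNA genes lie in clusters that are transcribed as one precursor RNA and then cut into separate hairpins. Members of a cluster can therefore be made together yet reach different levels, because cutting, trimming and decay act on each of them separately. In B-cell lymphomas the best-known miRNAs are miR-155 and the miR-17/92 cluster, both of which can promote lymphoma, and miR-34a, which acts downstream of p53. No table of miRNA sequences was used here, so families were assigned from the known seed groups, and no sequence is printed.

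Between 10686441 and 25784861 reads were counted on miRNAs in each DLBCL library. Levels are given as CPM, counts per 1e6 reads after scaling the libraries with TMM factors, which ranged from 0.698 in DLBCL5 to 2.03 in DLBCL6. Of the 320 miRNAs listed, 313 had a read in at least 1 DLBCL library and 7 had none. The 195 miRNAs with 10 or more reads in all 6 DLBCL libraries form the set described, and they took 100% of the DLBCL reads after rounding. A further 74 reached 10 reads in some of these libraries, and 51 stayed below 10 reads in all 6. A list of 6 miRNAs of lymphocytes was read beside the label of lymph node, and all of them had 10 or more reads in all 6 libraries. Since 195 of the 320 listed miRNAs did so too, this does not test the label. Their summed level ran from 13179 CPM in DLBCL3 to 28433 CPM in DLBCL5. No miRNA on that list separates B cells from T cells.

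The levels of most miRNAs differed more than 2-fold between affected nodes. The SD of log2 CPM over the 6 DLBCL libraries had a median of 0.94 over the 195 miRNAs and ran from 0.11 for let-7b to 3.0 for miR-196a. At this depth counting adds little to these SDs. The SD that read counting alone would give had a median of 0.04 and exceeded 0.1 of the observed SD in 51 of the 195 miRNAs. Counting limits cover sampling of reads only, since PCR copies are not independent molecules, and differences between dogs and between library preparations cannot be told apart with 1 library per dog. The highest level was more than 2 times the lowest for 185 miRNAs, more than 10 times for 59 and more than 100 times for 8. Spread did not track abundance in a simple way. The median SD was 0.87 for the 36 miRNAs under 10 CPM, 1.15 for the 63 between 10 and 100 CPM, 1.02 for the 44 between 100 and 1000 CPM, and 0.81 for the 52 above 1000 CPM.

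Spread was smaller in the 4 Healthy nodes than in the 6 DLBCL nodes for most miRNAs, but the test over libraries depended on single libraries. The SDs of log2 CPM in the Healthy nodes had a median of 0.48, and 166 of the 195 miRNAs (85.1%) had the larger SD in DLBCL. The mean deviation of a DLBCL library from its group mean, over all 195 miRNAs and scaled for group size, ran from 0.48 in DLBCL1 to 1.44 in DLBCL3 on the log2 scale, with the other 4 between 0.69 and 0.93. In the Healthy libraries it was 0.29, 0.33, 0.58 and 0.62, so that the groups overlapped only at DLBCL1. The group means were 0.87 and 0.46, a difference of 0.42 (two-sided exact permutation over samples, p = 0.0429). The deviations were taken from the group means once and kept for every split, so this p-value and those below are approximate. Without DLBCL3 the difference was 0.26 (exact permutation p = 0.0714), and with libraries scaled to total miRNA reads it was 0.35 (exact permutation p = 0.157). The p-value was above the threshold of 0.05 in 7 of the 10 comparisons that left out 1 library (exact permutation p from 0.0556 to 0.131) and with deviations from the group median (exact permutation p = 0.0810).

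**Figure D1:**
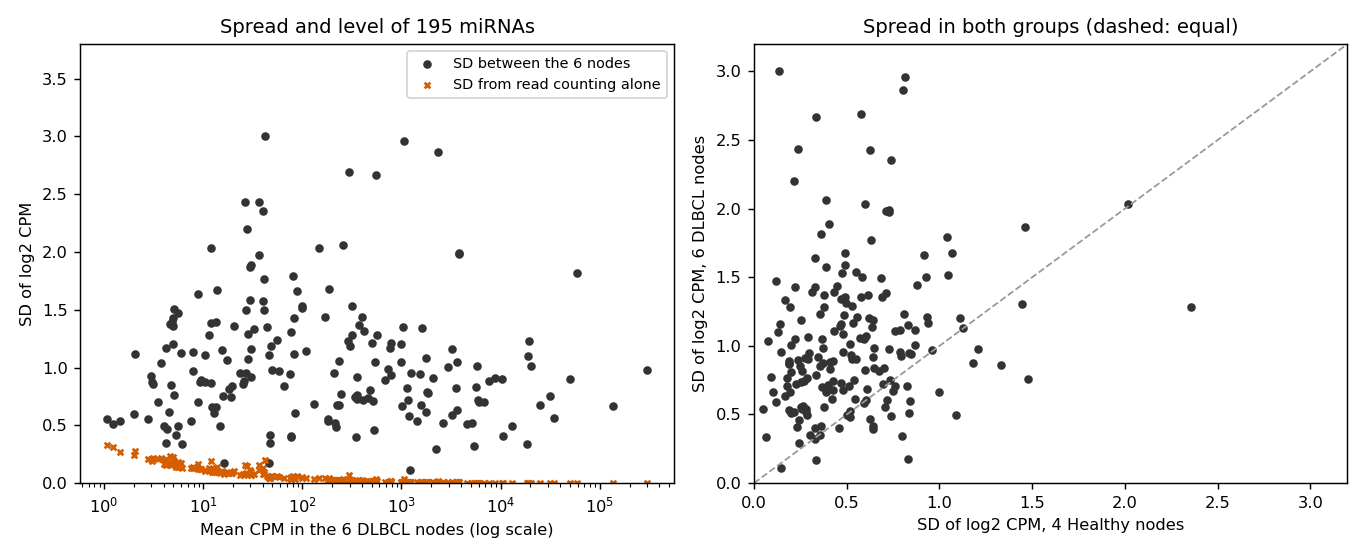
SD of log2 CPM of the 195 miRNAs. Left, the SD between the 6 DLBCL nodes (dark points) and the SD that read counting alone gives (orange crosses) against mean CPM on a log axis; right, the SD in the 6 DLBCL nodes against that in the 4 Healthy nodes. The crosses lie near the bottom of the left panel at all but the lowest levels, and 166 of 195 points lie above the dashed line of equal spread on the right.

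DLBCL3 stood apart from the other affected nodes. It was set apart from the other 5 by a wide gap in 12 of the 15 miRNAs (7.69% of 195) in which 1 DLBCL library was, while a Healthy library was set apart from the other 3 in 13 (6.67%). DLBCL3 held the highest or the lowest level of 135 of the 195 miRNAs (55 highest and 80 lowest), against 20 for DLBCL1 and 75 for DLBCL4, the next. Its root mean square log2 difference from the other 5 libraries averaged 2.11, against 1.35 to 1.64 for the rest. The closest pair of nodes was DLBCL1 and DLBCL2, which still differed more than 2-fold in 57 miRNAs, and the most distant was DLBCL3 and DLBCL4, with 143 such miRNAs. The first principal component carried 54.3% of the variance and ran from DLBCL4 (-11.1) and DLBCL6 (-9.83) through DLBCL2, DLBCL1 and DLBCL5 to DLBCL3 (21.5). DLBCL4 and DLBCL6 are also the 2 DLBCL libraries with the lower share of high-quality bases in the study's sequencing statistics, and the part of base quality in this order was not tested. Without DLBCL3 the median SD fell from 0.94 to 0.74, so results that rest on this library are given with and without it.

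The 15 miRNAs with the largest SDs included those of the cluster of miR-183, miR-96 and miR-182, both members of the miR-196 family, miR-34a and miR-34c, miR-9, miR-187, and the pair miR-216b and miR-217. In a bulk sample, fewer cells of a type and less of the RNA per cell cannot be told apart. miR-183, miR-96 and miR-182 are made from one precursor and are best known from sensory cells and from several cancers. miR-183 ran from 19.6 CPM in DLBCL6 to 4922 CPM in DLBCL3, with a median of 223 CPM, a 251-fold range and an SD of 2.96 log2 units. miR-182 ran from 54.2 CPM in DLBCL6 to 9586 CPM in DLBCL3, with a median of 686 CPM (SD 2.86). miR-96 ran from 16.6 CPM in DLBCL6 to 798 CPM in DLBCL1, with a median of 153 CPM (SD 2.06). All 3 were lowest in DLBCL6, but only miR-183 and miR-182 peaked in DLBCL3, where miR-96 reached 236 CPM. Without DLBCL3 their SDs were 2.27, 2.39 and 2.29, and the ranges of miR-183 and miR-182 fell from 251-fold to 45.0-fold and from 177-fold to 53.0-fold.

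miR-196a and miR-196b are encoded within the HOX gene clusters, which set position along the body axis, and they share a seed. miR-196a had the largest SD of all (3.0) and ran from 0.899 CPM in DLBCL2 to 129 CPM in DLBCL3, with a median of 31.3 CPM. The nodes fell at separate levels, with DLBCL1 and DLBCL2 under 2 CPM, DLBCL5 at 5.67 CPM, DLBCL4 and DLBCL6 at 57.6 and 56.9 CPM, and DLBCL3 above them. miR-196b ran from 1.46 CPM in DLBCL3 to 79.7 CPM in DLBCL4, with a median of 7.24 CPM (SD 2.20). It was lowest in the node where miR-196a was highest, and in the other 5 nodes both were higher in DLBCL4 and DLBCL6 than in DLBCL1, DLBCL2 and DLBCL5. DLBCL4 and DLBCL6 are also the DLBCL libraries of lower base quality. In the 4 of higher base quality the SD was 1.09 for miR-196b and 3.18 for miR-196a. The part of base quality was not tested. In the Healthy nodes miR-196a kept to a mean of 62.7 CPM with an SD of 0.13 log2 units.

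miR-34a and miR-34c, targets of p53 that restrain the cell cycle, also differed widely but in different nodes. miR-34a ran from 4.05 CPM in DLBCL3 to 754 CPM in DLBCL4, with a median of 245 CPM (SD 2.69), and the level in DLBCL3 was far below the next, 91.3 CPM in DLBCL5. Without DLBCL3 its SD was 1.15. miR-34c ran from 1.71 CPM in DLBCL6 to 207 CPM in DLBCL4, with a median of 6.15 CPM (SD 2.35), with 14.9 CPM or less in the other 5 nodes. Without DLBCL4 its SD was 1.18, and in the 4 DLBCL libraries of higher base quality it was 0.72. In DLBCL3, miR-34c was therefore the more abundant of the pair, while miR-34a led in the other 5 nodes.

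miR-9, known best from neurons, ran from 13.0 CPM in DLBCL2 to 1854 CPM in DLBCL3, with a median of 298 CPM (SD 2.67). The order of nodes differed from that of the miR-183 cluster, since DLBCL6 was second highest at 782 CPM. miR-217 and miR-216b, members of one cluster known from pancreatic acinar cells, were both highest in DLBCL4 and lowest in DLBCL3. miR-217 ran from 1.04 CPM in DLBCL3 to 179.5 CPM in DLBCL4, with a median of 10.2 CPM (SD 2.43, and 1.42 without DLBCL4). miR-216b ran from 16.4 CPM in DLBCL3 to 437 CPM in DLBCL4, with a median of 67.2 CPM (SD 2.04). Of the remaining miRNAs with the 15 largest SDs, miR-187 was highest in DLBCL5 (112 CPM) and lowest in DLBCL6 (1.09 CPM). miR-206, a miRNA of skeletal muscle, reached 51.0 CPM in DLBCL3 and stayed at 8.95 CPM or less elsewhere. Its SD among the Healthy nodes was just as large, at 2.02 against 2.03 in DLBCL. miR-411 belongs to the imprinted cluster taken up further on.

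miR-486, which is abundant in red blood cells and muscle, reached 17490.0 CPM in DLBCL3 against 339.5 to 1892 CPM in the other nodes. Its other arm, miR-486-3p, was listed at nearly the same level in all 6 (17132 CPM in DLBCL3 and 332 CPM in DLBCL6). The 2 entries had 371586 and 363992 reads in DLBCL3 and 21584 and 21564 in DLBCL1. Whether the same reads were counted under both names was not tested, so they are treated as 1 uncertain observation. Without DLBCL3 the SD of miR-486 fell from 1.98 to 1.09.

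**Figure D2:**
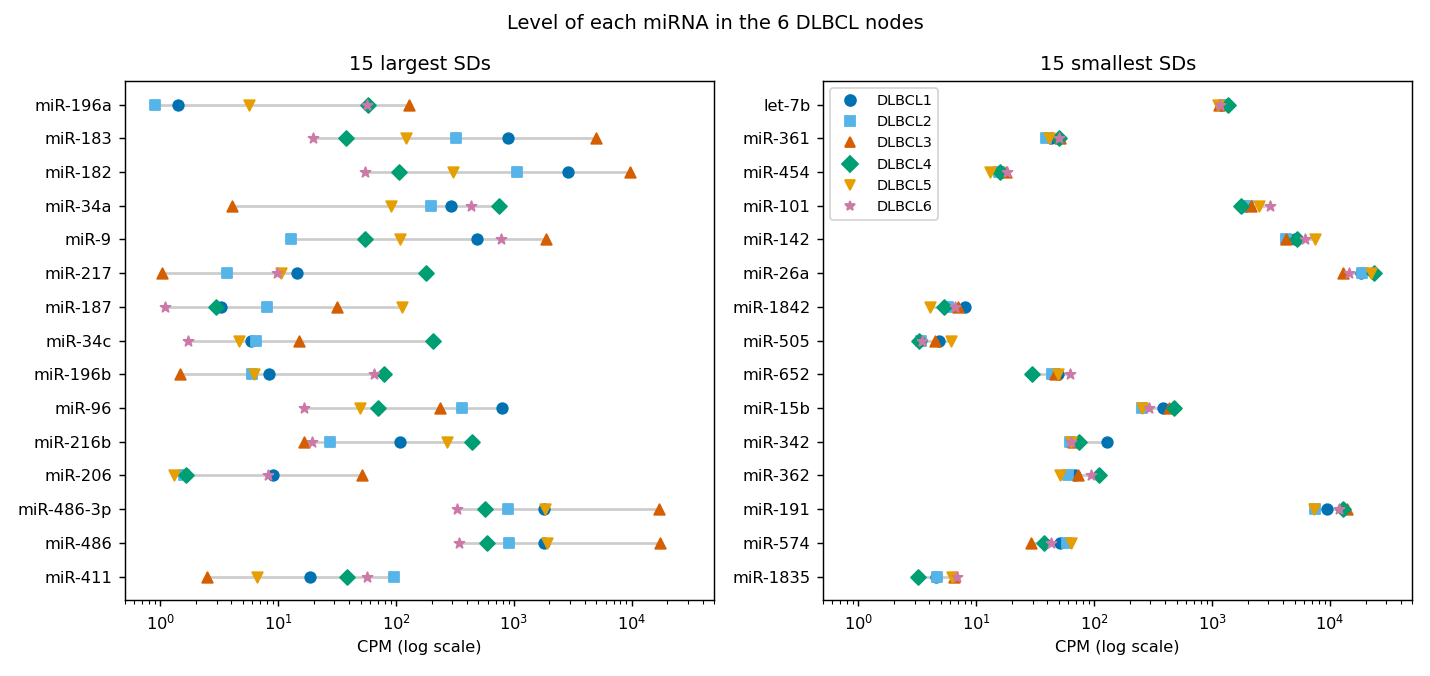
CPM on a log axis for the 15 miRNAs with the largest SD of log2 CPM (left) and the 15 with the smallest (right), with 1 symbol per DLBCL node and a grey line from the lowest to the highest. Ranges on the left span from 26.6-fold (miR-216b) to 251-fold (miR-183), and DLBCL3 holds the highest level of 7 of these miRNAs and the lowest of 5.

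At the other end, let-7b was almost level across the affected nodes. let-7b, a member of the let-7 family that restrains growth and is raised in differentiated cells, was lowest at 1129 CPM in DLBCL5 and highest at 1371 CPM in DLBCL4, with a median of 1184 CPM and an SD of 0.11. miR-361 ran from 38.8 CPM in DLBCL2 to 51.7 CPM in DLBCL3, with a median of 46.3 CPM (SD 0.17). miR-454 ran from 13.0 CPM in DLBCL5 to 18.1 CPM in DLBCL6, with a median of 16 CPM, an SD of 0.17, of which counting alone would give 0.08. The widest of these 3 ranges, that of miR-454, was 1.39-fold. Next came miR-101 (SD 0.30), which targets the histone methyltransferase EZH2, and miR-142 (SD 0.32), a miRNA of blood cells. miR-142 kept between 4234 and 7521 CPM, although the lymphocyte miRNAs miR-155 and miR-181a on the same list varied 4.50-fold and 9.84-fold. miR-26a (SD 0.34) and miR-191 (SD 0.41) were the only miRNAs among the 15 most abundant that were also among the 15 least variable. The other 8 of the least variable were miR-1842, miR-505, miR-652, miR-15b, miR-342, miR-362, miR-574 and miR-1835, with SDs between 0.34 and 0.42. Single nodes set some of these small SDs. That of miR-342 was 0.09 without DLBCL1, that of miR-652 0.19 without DLBCL4, that of miR-101 0.18 without DLBCL6 and that of miR-454 0.11 without DLBCL5.

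The least variable miRNAs depended on how the libraries were scaled. TMM assumes that most miRNAs do not differ, and its factors differed widely between the 6 libraries. When CPM was instead scaled to total miRNA reads, the SD of let-7b was 0.68 and only 1 of the 15 least variable miRNAs (miR-505) was still among the 15 least variable. The smallest SDs were then those of miR-320 (0.24) and let-7g (0.28), and that of miR-148a fell from 0.98 to 0.41. miR-320 was named after its values were seen. With DESeq2 size factors the SD of let-7b was 0.20, and with upper quartile factors 0.12. The most variable end moved less, since 10 of its 15 members were kept with total reads, 14 with DESeq2 size factors and 15 with upper quartile factors.

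A few miRNAs made up most of the reads of every affected node. The 10 most abundant took 78.0% ± 5.79 (SD, n = 6) of the miRNA reads of a library, and between 14 and 29 miRNAs were enough for 90% of them. Shares are of reads, and ranks between miRNAs are ranks of reads. miR-148a, which is raised in plasma cells and other secretory cells, took 31.3% ± 7.80 (SD, n = 6), with the lowest share of 17.8% in DLBCL6, a median of 31.3% and the highest of 39.0% in DLBCL3. miR-21, a miRNA raised in most cancers, took 16% ± 5.77 (SD, n = 6). The first place went to miR-148a in 5 nodes and to miR-21 in DLBCL6, where miR-21 took 25.4% of the reads. The Wilson 95% interval of a share of this size in 1 library is far narrower than these differences and covers counting error only.

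let-7f, let-7g, miR-143, miR-148a and miR-21 were among the 10 most abundant in all 6 nodes, and 16 miRNAs reached the first 10 in at least 1 node. let-7f and let-7g took 5.48% ± 2.07 and 4.02% ± 0.854 of the reads (SD, n = 6). miR-99a ranked 3 by mean level but the least even of the 15 most abundant. It ran from 4856 CPM in DLBCL3 to 162739 CPM in DLBCL5, with a median of 32684 CPM (SD 1.82), ranking 3 in DLBCL1, DLBCL2 and DLBCL5 and 25 in DLBCL3. miR-10b, which lies in a HOX cluster as miR-196 does, ranked 4 in DLBCL3 at 60141 CPM and 20 in DLBCL6 at 4669 CPM (SD 1.23, and 0.72 without DLBCL3). miR-451, a miRNA of red blood cells, ran from 4563 CPM in DLBCL4 to 33751 CPM in DLBCL1, with a median of 18513 CPM and ranked from 5 to 23. Its SD was 1.10, and 0.54 in the 4 DLBCL libraries of higher base quality. Without DLBCL4 alone it was 0.75, and without DLBCL6 alone 1.19. The rest of the 15 were miR-30d, miR-7, miR-26a, let-7a, miR-191, miR-25 and miR-363, whose SDs ran from 0.34 for miR-26a to 1.01 for miR-7. Of the 15, 14 or 15 were kept without any 1 DLBCL library and all 15 under the 5 other scalings.

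**Figure D3:**
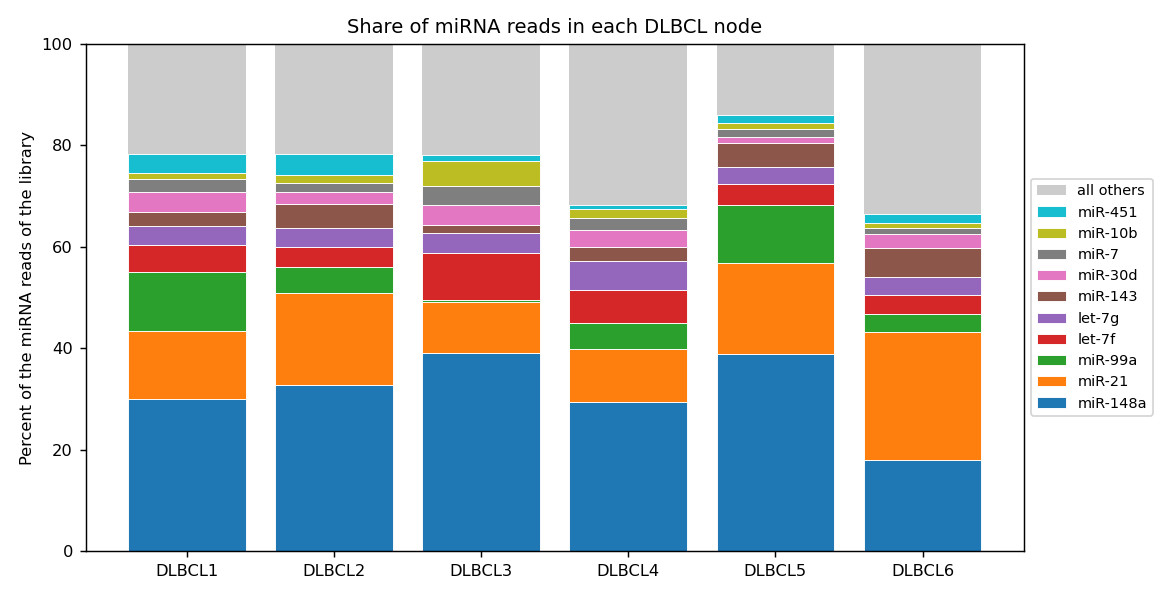
Percent of the miRNA reads of each DLBCL library taken by the 10 miRNAs with the highest mean CPM, with all others in grey. miR-148a forms the largest block in all nodes except DLBCL6, where miR-21 does, and the miR-99a block is nearly absent in DLBCL3 (0.400% of reads).

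Whether miRNAs of one cluster or one family vary together was examined with the correlation of log2 CPM over the 6 DLBCL nodes. All pairs share the same 6 libraries, their depths and their scaling factors, and DLBCL3 weighs on many of them. Neighbours are miRNA genes within 10 kb in the annotation of another dog assembly, without regard to strand. Over all 18915 pairs of the 195 miRNAs, r was spread evenly around a median of 0.00980, and 653 pairs (3.45%) had r over 0.9. Of the 84 pairs of neighbours, 17 (20.2%) had r over 0.9 and the median was 0.487. The 66 neighbours from different families had a median r of 0.468, and the 18 neighbours of one family 0.667. The 81 pairs of one family whose genes are not neighbours had a median of 0.231, with 10 (12.3%) over 0.9. These include near-identical sequences, such as miR-23a and miR-23b (r = 0.998), whose reads may have been shared in counting. Such pairs were not set apart, and their part in this share was not tested. Of the correlations between neighbours, 53 (63.1%) were above 0, against 50.5% of all pairs.

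With 6 libraries the smallest p that a permutation of the 720 pairings can give is 0.00139, and 109 pairs reached it. After Benjamini-Hochberg adjustment over the 18915 pairs, 0% passed an adjusted p of 0.05, by Pearson's r or by Spearman's rho. The smallest adjusted p was 0.226, and 2800 pairs by r and 1599 by rho had an unadjusted p under 0.05. A single pair could not pass whatever its r, because 0.00139 is far above what adjustment over 18915 pairs asks of 1 pair. Passing none thus does not show that pairs are unrelated. The correlations below are therefore descriptions, with their exact p beside them. Without DLBCL3 the median r of neighbours was 0.611 and that of all pairs 0.00332. Scaled to total miRNA reads, the medians rose to 0.692 for neighbours, 0.645 for families and 0.284 for all pairs.

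**Figure D4:**
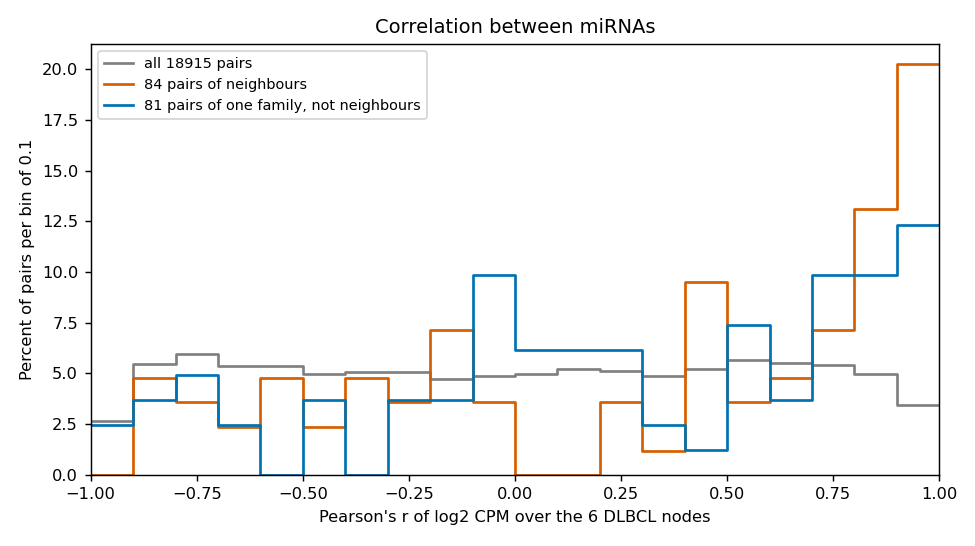
Percent of pairs in each bin of 0.1 of Pearson's r over the 6 DLBCL nodes, for all 18915 pairs (grey), the 84 pairs of neighbours (orange) and the 81 pairs of one family that are not neighbours (blue). The grey line is nearly flat, while the last bin, r over 0.9, holds 20.2% of neighbours against 3.45% of all pairs.

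Some of the 28 clusters with 2 or more members in the set had members that rose and fell together, although no pair passed adjustment. miR-182 and miR-183 rose and fell together over a range of more than 100-fold (r = 0.996, rho = 1, exact permutation p = 0.00139 and 0.00278, adjusted p = 0.226 for r), and r was 0.999 without DLBCL3 and 0.998 without the 2 nodes farthest from the median. miR-96, the other member, followed them less closely with all 6 nodes than without DLBCL3, where the lowest r of the cluster rose from 0.775 to 0.938. miR-195 and miR-497, neighbours of the miR-15/16 family that restrain the cell cycle, ran from 110.1 to 344 CPM and from 27.5 to 106 CPM (r = 0.997, rho = 1, exact permutation p = 0.00139 and 0.00278, adjusted p = 0.226 for r). Both were highest in DLBCL4 and lowest in DLBCL3, and r without the 2 farthest nodes was 0.998. Of all 195 miRNAs, 80 were lowest in DLBCL3 and 41 highest in DLBCL4.

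The miR-29 miRNAs, which target collagens and other matrix genes, followed the same nodes. miR-29a ran from 688 CPM in DLBCL3 to 2930.4 CPM in DLBCL4, with a median of 1464 CPM, and miR-29b and miR-29c were likewise highest in DLBCL4 and lowest in DLBCL3. The closest pair was miR-29b and miR-29c (r = 0.978, rho = 1, exact permutation p = 0.00139 and 0.00278, adjusted p = 0.226 for r), and the least close, miR-29a and miR-29c, had r = 0.850. miR-29a and miR-29c share a family but are not neighbours within 10 kb, so theirs is not a correlation within 1 cluster. miR-29b and miR-29c have several genes or near-identical relatives, so the counting could have split reads between them. miR-199 and miR-214, made from one RNA in fibroblasts and other stromal cells, were both lowest in DLBCL3 (239 and 9.70 CPM) and were highest in DLBCL6 (3027 CPM) and DLBCL2 (90.9 CPM) respectively (r = 0.964, rho = 0.771, exact permutation p = 0.0111 and 0.103, adjusted p = 0.232 for r, r = 0.837 without the 2 farthest nodes). miR-99a and let-7c also moved together (r = 0.923, rho = 0.886, exact permutation p = 0.0111 and 0.0333, adjusted p = 0.232 for r), let-7c over the narrower range of 591 to 2152 CPM. miR-216b and miR-217 had r = 0.807, and the 6 pairs of miR-503, miR-542, miR-450a and miR-450b had r from 0.477 to 0.843. The lowest of these is below the upper quartile of r over all pairs, 0.501.

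In the miR-17/92 cluster, which drives proliferation in B-cell lymphomas, miR-92a parted from the other 5 members in DLBCL3. miR-20a, its most abundant member of the miR-17 family, ran from 845 CPM in DLBCL3 to 5453 CPM in DLBCL4, with a median of 2749 CPM. miR-18a, miR-19a, miR-19b and miR-17 were likewise highest in DLBCL4 and lowest in DLBCL3, and the closest pair was miR-18a and miR-20a (r = 0.987, rho = 1, exact permutation p = 0.00139 and 0.00278, adjusted p = 0.226 for r, r = 0.969 without the 2 farthest nodes). miR-92a, from the same precursor, ran from 3143 CPM in DLBCL6 to 14163 CPM in DLBCL3, with a median of 3844 CPM. It was highest in the node where the other 5 members were lowest, and its r with miR-17 was -0.842 (rho = -0.371, exact permutation p = 0.0653 and 0.497). This opposition rested on DLBCL3, without which r was 0.0253, and with total miRNA reads as the scale it was -0.422. On that scale r of miR-92a was -0.0107 with miR-20a, 0.0185 with miR-18a and 0.00358 with miR-19a. miR-17 also followed the others less closely without DLBCL3, with r = 0.239 for miR-20a, 0.0459 for miR-19a and 0.00976 for miR-19b. miR-92a and miR-19b each have a further gene in the cluster of miR-106a and miR-363, so their reads can come from either locus.

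In the related miR-106b/25 cluster it was miR-25 that ran against the other 2 members. miR-106b and miR-93, of the miR-17 family, had r = 0.894 with each other. miR-25, which shares the seed of miR-92a, ran from 4969 CPM in DLBCL2 to 23024 CPM in DLBCL3, with a median of 7683 CPM, and had r = -0.844 with miR-106b (exact permutation p = 0.0431) and -0.804 with miR-93. These were -0.681 and -0.692 without DLBCL3. With total miRNA reads as the scale they were -0.414 and -0.368. miR-25 and miR-92a, which lie in different clusters but share a seed, had r = 0.884. Across the clusters, miR-106b and miR-20a of the miR-17 family had r = 0.955.

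**Figure D5:**
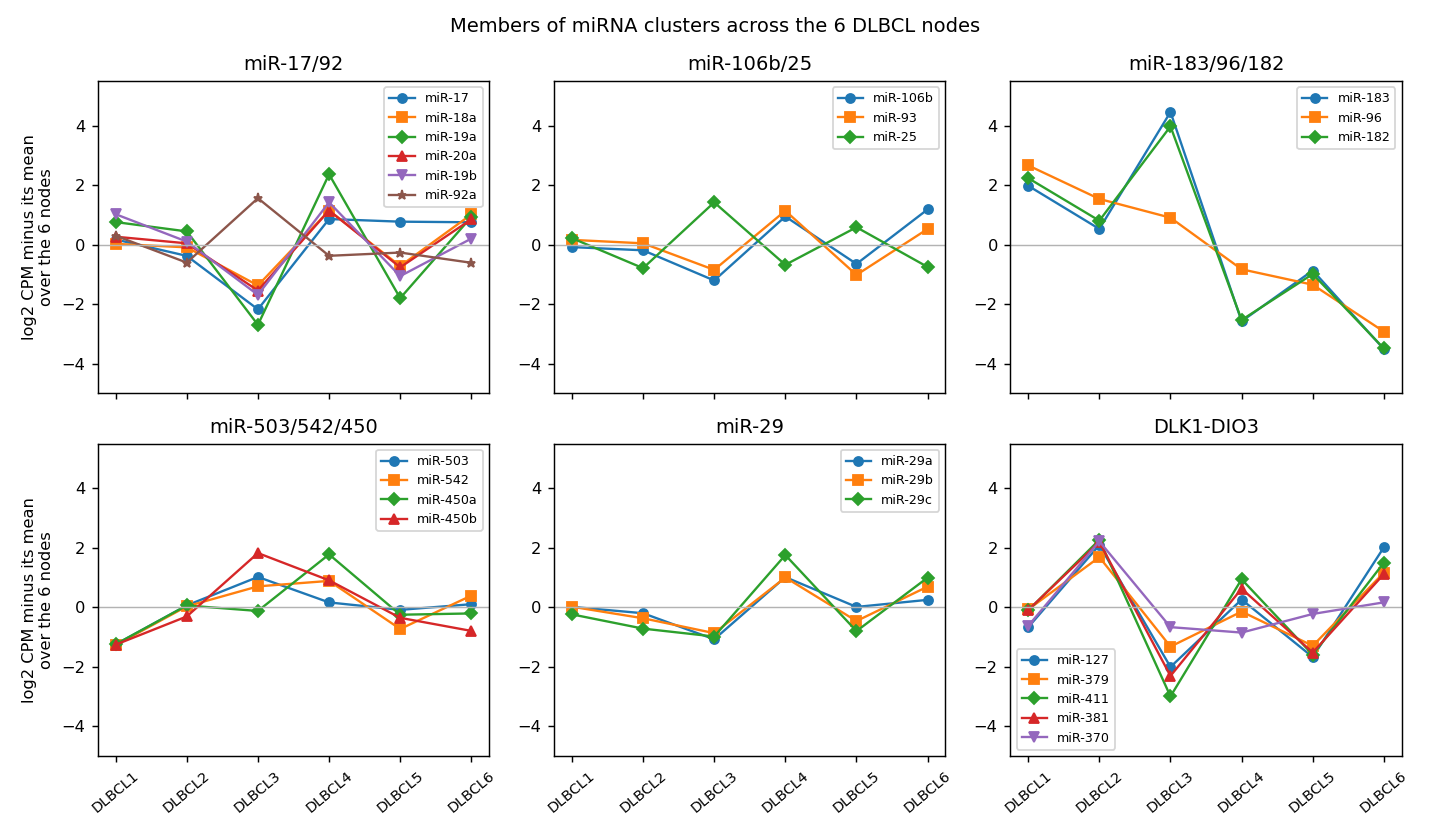
Members of 6 clusters or groups of clusters across the 6 DLBCL nodes, as log2 CPM minus each miRNA's own mean over the nodes. miR-29a and miR-29c are not neighbours within 10 kb. The lines of miR-183 and miR-182, of the miR-29 miRNAs and of miR-127, miR-379, miR-411 and miR-381 of the imprinted DLK1-DIO3 region run close together, while miR-92a and miR-25 rise in DLBCL3 where their neighbours fall.

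Other neighbours did not follow each other when scaled with TMM, and the sign of r depended on the scale for several of them. Scaled to total miRNA reads, r changed sign in 20 of the 84 pairs of neighbours (23.8%), 18 of them from below to above 0. miR-143 and miR-145, made from one precursor in smooth muscle and fibroblasts, had r = -0.0344 (4.42-fold and 14.2-fold ranges). miR-143 was highest in DLBCL5 (69209.9 CPM) and miR-145 in DLBCL4 (1205 CPM), and r was -0.948 without DLBCL3 and 0.525 with total reads. miR-144 and miR-451, the red cell pair, had r = -0.219, and r was 0.233 when scaled to total miRNA reads. miR-144 was highest in DLBCL6 (24.4 CPM), where miR-451 was second lowest with 9065 CPM. miR-30b and miR-30d had r = -0.199, which became 0.596 with total reads. miR-191 and miR-425 had r = -0.597 (-0.231 with total reads), and miR-221 and miR-222, which target the cell cycle inhibitor p27, 0.236 (0.204). In the X-linked cluster of miR-500, miR-502, miR-532, miR-660, miR-188 and miR-362, named after its values were seen, r ran from -0.805 for miR-532 and miR-660 (-0.393 with total reads) to 0.988 for miR-500 and miR-502, whose exact permutation p was 0.00139.

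Seed families differed in which member led and in whether the members followed it. let-7f led the let-7 family in all 6 nodes with 39.6% to 60.0% of the summed CPM of its 8 members. let-7a and let-7f rose together (r = 0.961, exact permutation p = 0.00556), whereas let-7a and let-7e ran in opposite directions (r = -0.906, exact permutation p = 0.00972). With total miRNA reads as the scale these 2 values were 0.563 and 0.153, so the opposition was not seen on that scale. let-7b was the least and let-7d the most variable member (SD 0.11 and 0.95). miR-148a held 97.5% to 99.7% of its family, and miR-152, which lies elsewhere, ran against it (r = -0.905, exact permutation p = 0.0153, r = -0.886 with total reads).

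Most members of the miR-17 family, which lies in 3 clusters, had positive correlations with one another. miR-20a led in all 6 nodes with 50.9% to 66.5% of the family, 14 of its 15 correlations were above 0 and their median was 0.752. Without DLBCL3 the median was 0.801, with 14 of 15 above 0, but miR-17 itself had r = 0.239 with miR-20a, 0.128 with miR-93 and -0.294 with miR-20b. The summed level ran from 1660.1 to 8508 CPM. miR-23a and miR-23b, whose mature sequences are nearly identical, had r = 0.998, and their reads may have been shared in counting. In some families the leading member changed in DLBCL3. miR-125b, a regulator of blood cell differentiation, ran from 41.4 CPM in DLBCL3 to 629 CPM in DLBCL4, with a median of 432 CPM, while miR-125a ran from 121 CPM in DLBCL3 to 288 CPM in DLBCL2, with a median of 230.0 CPM. miR-125b thus held 25.5% of the family in DLBCL3 and 59.8% to 74.0% elsewhere. miR-374a fell to 20.4% of its family in that node and miR-196b to 1.12%. By the range of the summed level, the family of miR-130 and miR-301 was the steadiest of the 24 families with 2 or more members in the set (1.76-fold). The widest range was that of miR-34a and miR-34c (50.6-fold), but this sum leaves out miR-449a, which is outside the set. miR-449a was highest in DLBCL3 (11.7 CPM), where the sum was lowest (19.0 CPM). By the SD of the log2 sum, the miR-196 family was the least steady, at 2.10 against 1.97 for miR-34a and miR-34c.

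The imprinted DLK1-DIO3 region, transcribed from the maternal chromosome, holds one of the largest groups of miRNA genes. Of its 33 listed miRNAs, 5 had 10 or more reads in all 6 nodes (miR-127, miR-379, miR-411, miR-381 and miR-370). Their 10 correlations were all above 0, from 0.607 to 0.993 with a median of 0.940, and the median was 0.944 without DLBCL3. All 5 were highest in DLBCL2, and 4 were lowest in DLBCL3. Of all 195 miRNAs, 25 were highest in DLBCL2 and 80 lowest in DLBCL3. The summed level was 919.7 CPM in DLBCL2, 538 CPM in DLBCL6, 299 CPM in DLBCL4, 193 CPM in DLBCL1, 80.3 CPM in DLBCL5 and 54.2 CPM in DLBCL3. The 4 Healthy nodes lay between 660.3 and 1593 CPM, so that DLBCL2 was within their range and the other 5 below it. The largest SDs were those of miR-411 (1.97) and miR-127 (1.77).

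Lists of miRNAs typical of other cell types were summed in each node. Some of the miRNAs described above are themselves members (miR-9, miR-206, miR-216b, miR-217, miR-451 and miR-486), so the sums are no separate measure of them. The 4 red cell miRNAs summed to 5740.1 CPM in DLBCL4, a median of 28427 CPM and 48885 CPM in DLBCL3, against 873 to 1278 CPM in Healthy nodes. Because miR-486 and miR-486-3p may be the same reads, the sum was also taken with miR-486 alone, and then ran from 5171 CPM in DLBCL4 to 35566 CPM in DLBCL1, with 31753 CPM in DLBCL3 and 808 to 1070.4 CPM in Healthy nodes. The members did not share an order, since miR-451 was highest in DLBCL1, miR-486 in DLBCL3 and miR-144 in DLBCL6. miR-144 was lowest in DLBCL3 (2.35 CPM). That level and the one in DLBCL5 (3.91 CPM) were inside its Healthy range of 0.105 to 5.92 CPM. The 3 acinar miRNAs summed to 17.5 CPM in DLBCL3 and 662 CPM in DLBCL4, against 914 to 1949.8 CPM in Healthy nodes. The 6 stromal and vessel miRNAs ran from 19095 to 71058 CPM, most of it miR-143. The other 5 members of that list were all lowest in DLBCL3, as were 80 of all 195 miRNAs. One of the 5, miR-126 of endothelial cells, was 8.85 CPM in DLBCL3 and 186 CPM in DLBCL6.

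In DLBCL3, 3 of the 8 miRNAs of the epithelial list stood well above the other nodes. miR-375, typical of endocrine and epithelial cells, stood at 72.6 CPM there and at 0.273 to 1.09 CPM in the other 5 nodes. miR-200c stood at 108 CPM against 10.3 to 15.8 CPM, and miR-200a at 14.4 CPM against 0 to 0.195 CPM. miR-141, the neighbour of miR-200c, was at 4.05 CPM there, inside the range of 2.35 to 5.99 CPM of the others, and miR-203 was lowest there (3.25 CPM against 4.27 to 48.7 CPM). Other defining members were near or at 0 in that node. miR-205 at 0.329 CPM and miR-429 at 0.518 CPM were highest there, against 0 to 0.078 and 0 to 0.173 CPM in the others, but on 7 and 11 reads. miR-200b had 0 reads there, which allows up to 0.141 CPM. Of the 5 listed neural miRNAs only miR-9 and miR-153 had 10 or more reads in all 6 nodes, and miR-124 and miR-137 of neurons had 0 reads in DLBCL3, where miR-9 was highest. The striated muscle list was mostly miR-499. miR-1 was highest in DLBCL3 (301.1 CPM, against 7.16 to 66.4 CPM in the others), while miR-133c was 7.53 CPM there and highest in DLBCL1 (9.71 CPM). miR-223 of myeloid cells ran from 3.95 CPM in DLBCL3 to 88.3 CPM in DLBCL4. miR-122 of liver stayed between 0.753 and 11.1 CPM. The part of these cell types in the spread of any miRNA was not tested.

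The lymphocyte list was the steadiest of those with several members. Its summed level had a 2.16-fold range, and the median SD of its 6 members was 0.65 against 0.94 over the 195 miRNAs. miR-155, a driver of B-cell lymphoma, ran from 3264 CPM in DLBCL2 to 14698 CPM in DLBCL1, with a median of 5899 CPM (SD 0.89), with DLBCL5 second at 11963 CPM. miR-150, which is high in mature resting lymphocytes, ran from 553 CPM in DLBCL2 to 1736 CPM in DLBCL3, with a median of 806 CPM (SD 0.66). miR-181a, a regulator of antigen receptor signalling, was the most variable member and ran from 209.5 CPM in DLBCL3 to 2063 CPM in DLBCL4, with a median of 897 CPM (SD 1.20).

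Some miRNAs outside the set of 195 were abundant in a single node. Apart from miR-375, miR-200a and miR-216a of the lists above, they were named after their values were seen. miR-216a had 1314 reads in DLBCL4 and 1 in DLBCL3, the nodes in which its cluster members miR-216b and miR-217 were also highest and lowest. miR-184 had 1577 reads in DLBCL6, 112 in DLBCL2 and 0 in DLBCL5, where 0 reads allow up to 0.195 CPM. miR-449a, of the miR-34 seed family, had 249 reads in DLBCL3, the node with the least miR-34a, and 0 to 18 elsewhere. miR-508b and miR-507a, both of the miR-506 group of the X chromosome, were most abundant in DLBCL1 (317 and 265 reads) and DLBCL4 (199 and 305 reads). Of the 74 miRNAs with 10 or more reads in some but not all of these nodes, 24 had their highest CPM in DLBCL6 and 5 in DLBCL1.

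Spread was last compared with that of the Healthy nodes for each miRNA, by limma's test on the absolute deviations from the group mean. Of the 195 miRNAs, 1 (0.513%) passed an adjusted p of 0.05, and 24 (12.3%) had an unadjusted p under 0.05, 22 of them (11.3%) with the larger spread in DLBCL. The call was miR-196a. Its levels in the Healthy nodes were 71.0, 57.1, 62.1 and 60.4 CPM, inside the DLBCL range. They lay near those of DLBCL4 and DLBCL6, which share the lower base quality with all Healthy libraries. The part of base quality in this call was not tested. The mean scaled deviation was 2.85 in DLBCL and 0.11 in Healthy nodes, a difference of 2.74 (SE 0.47, limma adjusted p = 0.0180). The count of calls fell to 0 when any 1 of DLBCL1, DLBCL2, DLBCL4, DLBCL6 or the 4 Healthy libraries was left out (smallest adjusted p between 0.0639 and 0.197). miR-216b, miR-9 and miR-96 came next, with differences of 1.42, 2.08 and 1.56 and adjusted p-values of 0.222, 0.222 and 0.239. For the other miRNAs, a p that misses the threshold does not show that spread was alike in both groups.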

How the data were processed

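Small RNA of 6 DLBCL and 4 Healthy canine lymph nodes was sequenced by the authors, 1 library per dog. Per the study's methods, cleaned reads were mapped with Bowtie 0.12.9 to CanFam3.1, reads of repeats and other small RNA classes were removed, and mature miRNAs of miRBase were counted with miRDeep2. The authors deposited read counts without normalization. The deposited TPM values equal the counts divided by the total over the listed miRNAs and scaled to 1e6 (largest difference 4.55e-05), and were not analysed further. The arm of most miRNAs is not in their names, and whether multi-mapping reads were shared between copies is not given in the sources used here.

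Counts were scaled with TMM factors over the 10 libraries (edgeR 4.0.16, R 4.3.3). log2 CPM used a prior count of 2. The SD over the 6 DLBCL libraries was taken for the 195 miRNAs with 10 or more reads in all 6. miRNAs named were the 15 at each end of the SD ranking, the 15 most abundant, and members of clusters, families and cell type lists. The members and lists were chosen with earlier results of these data known. Pairs were tested by exact permutation of Pearson's r over 720 pairings, with Benjamini-Hochberg adjustment over 18915 pairs. Spread in DLBCL and Healthy nodes was compared with limma 3.58.1 on scaled absolute deviations, and, as 1 mean per library, by exact permutation over 210 splits. Tests were two-sided. The pair test and the limma test were tried on simulated data, but the permutation over 210 splits was not. That permutation used deviations already taken from the group means and did not take them anew for each split. Deviations within a group depend on one another, so its p-values are approximate. For this test, exact means only that every split was counted.

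Of 320 names, 318 matched a gene of the UU_Cfam_GSD_1.0 annotation, used only to find neighbours within 10 kb. It gave no strand, so the planned restriction to one strand was dropped, and families came from known seed groups in place of sequences. Without sequences, the planned setting apart of near-identical mature miRNAs was dropped too. The 6 DLBCL libraries held between 10686441 and 25784861 miRNA reads, and the counting SD of log2 CPM had a median of 0.041. Alternatives were other scalings (total miRNA reads, with or without miR-148a, DESeq2 1.42.0 size factors, upper quartile, TMM over the 6), other read minimums and prior counts, the median absolute deviation, the replicate number as a block, the 4 DLBCL libraries of the higher base quality class alone, and each library left out. A minimum of 10 reads in all 10 libraries was added after seeing the data. Python 3.11.15 with numpy 2.4.6, scipy 1.17.1 and pandas 2.3.3 was used for permutations, and matplotlib 3.10.9 for plots.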

Additional observations from a re-analysis of the deposited data

Results flagged for a closer look

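For 15 of the 195 miRNAs (7.69%) 1 DLBCL library was far from the other 5, by the share of the range of log2 CPM that separates it from its nearest neighbour (critical share 0.625 for 6 libraries). Chance flags about 1 in 20 such groups. In 12 of the 15 the library was DLBCL3. It was far below the rest for miR-125b (share 0.821), miR-30a (0.795), miR-365 (0.736), miR-326 (0.719), miR-181d (0.692), miR-455 (0.682) and miR-8859a (0.652). It was far above them for miR-200c (0.820), miR-148b (0.701), miR-664 (0.701), miR-1844 (0.675) and miR-671 (0.650). The others were miR-342, high in DLBCL1 (0.774), miR-370, high in DLBCL2 (0.672), and miR-20b, low in DLBCL5 (0.651). A Healthy library was as far from the other 3 for 13 of the 195 miRNAs (6.67%). Among the miRNAs named for spread or abundance, Healthy2 was far from the other 3 for miR-15b (0.947) and Healthy5 for miR-182 (0.896), against a critical share of 0.829 for 4 libraries. Of these miRNAs, those that are not members of a cluster, family or list above were named after their values were seen.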

How the results depend on the processing

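The median SD of log2 CPM stayed between 0.74 and 1.08 under the alternatives run, the count of miRNAs between 162 and 227, and at least 14 of the 15 most abundant miRNAs were kept. Of the 15 least variable miRNAs, 1 was kept with total miRNA reads, 4 with total reads without miR-148a, 9 in the 4 libraries of higher base quality and 7 by the median absolute deviation, which kept 9 of the 15 most variable. Leaving out 1 DLBCL library kept 7 to 13 of the least and 10 to 14 of the most variable. The median r of neighbours was 0.692 with total reads, 0.710 with total reads without miR-148a, 0.597 with 1 or more reads and 0.496 to 0.611 with 1 library left out. That of family members that are not neighbours was 0.645, 0.580 and, in the libraries of higher base quality, 0.0596, and 0.258 to 0.421 with 1 library left out. No pair was called under the alternatives run, in which a single pair could likewise not pass. The count of called pairs was not computed with 5 libraries.

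Against Healthy nodes, the count of miRNAs with another spread was 0 with 50 or more reads (17 at an unadjusted p under 0.05) and 0 with deviations from the group median (17), and 0 to 1 with 1 library left out. The difference in mean deviation over all miRNAs was 0.35 with total reads (exact permutation p = 0.157), 0.41 with deviations from the group median (p = 0.0810) and 0.26 to 0.52 with 1 library left out. Its p exceeded 0.05 without DLBCL3, DLBCL4, DLBCL5, DLBCL6, Healthy2, Healthy3 or Healthy4. miR-196a, the only call, has under 50 reads in 2 libraries and is not in the set with 50 or more. The cause of the other changes was not tested. None of these summary values changed sign, but single correlations did. With total reads r changed sign in 20 of 84 pairs of neighbours and 19 of 81 pairs of one family that are not neighbours, among them miR-143 and miR-145 (-0.0344 to 0.525), miR-144 and miR-451 (-0.219 to 0.233), miR-30b and miR-30d (-0.199 to 0.596) and let-7a and let-7e (-0.906 to 0.153). Without DLBCL3 it did in 11 and 14.

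With the replicate number as a block, limma called 0 miRNAs, 30 had an unadjusted p under 0.05, and the smallest adjusted p was 0.168. The deviations of same-numbered libraries correlated at 0.016, 0.161, -0.372 and -0.402. These values cannot by themselves show whether the numbers pair the dogs. The study describes no pairing of hospital patients with research dogs.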
